A study of Mus musculus with 10 samples.

Results

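The 39 genes described here are interferon-stimulated effectors, the genes whose products carry out the antiviral state of a cell: IFIT and OAS proteins, Mx GTPases, the ISG15 system, membrane restriction factors, PARP and TRIM proteins and smaller induced families. They were chosen as a list of mouse symbols, with no measured value in the rule, and all 39 were found among the 27151 genes of the table. All 39 also passed the filter on low values, which kept genes reaching 10 in 4 or more libraries. Tongue RNA of C57BL/6J mice was sequenced, and the mice of both groups had been given 4NQO, which causes oral tumours. The vehicle group held 4 libraries and the group whose treatment is labelled SP2509, an inhibitor of the histone demethylase LSD1, held 6; the titles of the latter read SP2509h. Neither age, dose and duration nor the number of mice behind the libraries is stated in the sources, so the p-values describe variation among libraries that may be partly technical.

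Interferons are secreted proteins that bind receptors on neighbouring cells, and the JAK kinases of these receptors phosphorylate STAT proteins. A complex of STAT proteins with IRF9 binds the interferon-stimulated response element (ISRE) in front of effector genes, whereas the gamma-activated site (GAS) is best known from the response to interferon gamma. In stratified epithelium such as that of the tongue, keratinocytes and resident or infiltrating leukocytes can all express these effectors. Bulk tissue was sequenced, so more expressing cells and more RNA per cell cannot be told apart.

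Values are given as normalised reads, the authors' gene counts divided by a factor for each library, which did not make library totals equal. Whole reads summed to between 9180844 and 14768955 in vehicle and between 15748571 and 19375555 in SP2509, and mitochondrial genes took 35.3% to 52.1% of them in vehicle and 24.0% to 32.2% in SP2509. SP2509 replicates 1 and 2, and replicates 4 and 5, were unusually close at high read counts. Their squared differences at 1000 to 5000 reads were 3.48 and 3.72 times the Poisson expectation, against 11.1 to 163 in the other pairs within a group. At 10 to 50 reads they were 2.42 and 3.52 times, against 2.61 to 6.97, so replicates 4 and 5 were not set apart there. The libraries of each close pair differed by more than sampling noise. Each of these pairs was still averaged to 1 unit in means and SDs (n = 4 vehicle libraries and n = 4 SP2509 units). All 9 tongue epithelium keratins looked for were present in every library. Marker genes set several libraries apart: the summed mucous and serous gland markers reached 396636 and 411072 normalised reads in SP2509 replicates 4 and 5 and 5589 in replicate 6, and were 20.9 to 502 elsewhere. Skeletal muscle markers summed to 759693 in SP2509 replicate 6 and to 145781 to 347489 in the other libraries. Keratinocyte markers summed to 243335 to 278115 in SP2509 replicates 1 to 3, 136612 and 135490 in replicates 4 and 5, 55038 in replicate 6 and 91550 to 128016 in vehicle.

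Promoter letters were compared first, because they show what the genes share apart from their names. RefSeq promoter windows (GRCm38.p6, 250 bases before to 50 after the start of a gene) were matched by symbol for 30 of the 39 genes. The ISRE core (GAAA, any 2 bases, GAAA), searched on both strands with overlapping matches counted, was found in 13 of these 30 genes (43.3%), against 3.99% of all 27025 genes with a window. The palindromic GAS core TTCNNNGAA was found in 6 of 30 (20%), against 9.55% of all genes. By window, 40% of the 35 windows of these genes and 3.44% of all 32851 windows held the ISRE core. For the GAS core the shares were 17.1% and 8.3%. The stretches printed here are those of the 4 genes with the smallest p among the 11 with an ISRE match wholly before the RefSeq start (Ifitm2, Oas1a, Ddx60 and Isg15), and of 3 Ifit genes that sit in 1 cluster. ISRE core letters are in capitals, and each stretch runs 5′ to 3′ on the strand of its gene, with up to 20 bases on either side. Ifitm2 lies on the minus strand (chr7:140955978-140956027), Oas1a on the minus strand (chr5:120907526-120907565), Ddx60 on the plus strand (chr8:61928014-61928086), Isg15 on the minus strand (chr4:156200855-156200916), and Ifit1, Ifit3 and Ifit3b on the plus strand of chromosome 19 (chr19:34640765-34640833, chr19:34583353-34583436 and chr19:34607749-34607832).
Ifitm2: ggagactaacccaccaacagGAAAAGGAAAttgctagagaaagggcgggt
Oas1a: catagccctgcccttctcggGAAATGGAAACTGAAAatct
Ddx60: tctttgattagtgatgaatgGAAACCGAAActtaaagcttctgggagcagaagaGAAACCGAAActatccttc
Isg15: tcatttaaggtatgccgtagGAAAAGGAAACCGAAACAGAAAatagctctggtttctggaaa
Ifit1: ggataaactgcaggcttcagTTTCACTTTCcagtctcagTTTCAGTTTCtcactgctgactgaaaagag
Ifit3: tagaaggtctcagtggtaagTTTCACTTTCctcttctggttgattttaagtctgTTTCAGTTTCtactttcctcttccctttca
Ifit3b: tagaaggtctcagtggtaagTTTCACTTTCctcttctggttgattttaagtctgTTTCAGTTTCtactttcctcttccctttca
Isg15 held 3 overlapping matches, Oas1a held 2 overlapping ones and Ddx60 held 2 separate ones. In Ifit1, Ifit3 and Ifit3b the matches are on the opposite strand and read as TTTC, any 2 bases, TTTC. The stretches of Ifit3 and Ifit3b are the same letters. A match is a run of letters and was not tested as a bound site. Genes with an ISRE match had a median log2 fold change (SP2509 against vehicle) of 0.30, with 8 of 13 positive, and those without one had a median of 0.08, with 12 of 17 positive.

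The series compares LSD1 inhibition with vehicle, and its title names the interferon gamma axis. None of the 39 effectors passed the test, higher or lower (limma on log2(value + 1), Benjamini-Hochberg adjusted p under 0.05 over 17088 genes). Of all genes tested 4.95% were called higher and 4.15% lower. Genes were split 846 higher to 709 lower in that fit, 296 to 1444 after rescaling to equal totals outside mitochondrial genes and 666 to 1060 after quantile normalization. At an unadjusted p under 0.05, 7 of the 39 were higher (17.9%) and none lower, against 15.2% and 12.8% of all genes tested. edgeR on the recovered whole reads called 0 of 39 (against 5.34% of all genes higher and 3.42% lower), with 8 at an unadjusted p under 0.05 (20.5%, against 28.5% of all genes), and DESeq2 called 2, Ifitm3 and Ifi27l2a (5.13%, against 9.4% of all genes higher). The fold changes were positive for 25 of 39 (64.1%, against 51.9% of all genes), and their median was 0.12 on the log2 scale, against 0.02 for all genes. Rescaling to equal totals outside mitochondrial genes moved the 2 medians to -0.03 and -0.13. In none of the 39 genes did all SP2509 libraries lie above, or all lie below, the vehicle libraries, whereas this held for 6.54% and 5.11% of all genes. Without SP2509 replicate 6 limma called 6 of the 39 higher (15.4%, against 11.8% of all genes): Ifitm3, Ifi27l2a, Oas1a, Oas3, Ifitm2 and Usp18. It called none of the 39 when any other single library, or either close pair, was left out. With the close pairs averaged it called none of the 39 and 0% of all genes in either direction; 2 of the 39, Ifitm3 and Ifi44, had an unadjusted p under 0.05 there (5.13%, against 21.7% of all genes).

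**Figure D1:**
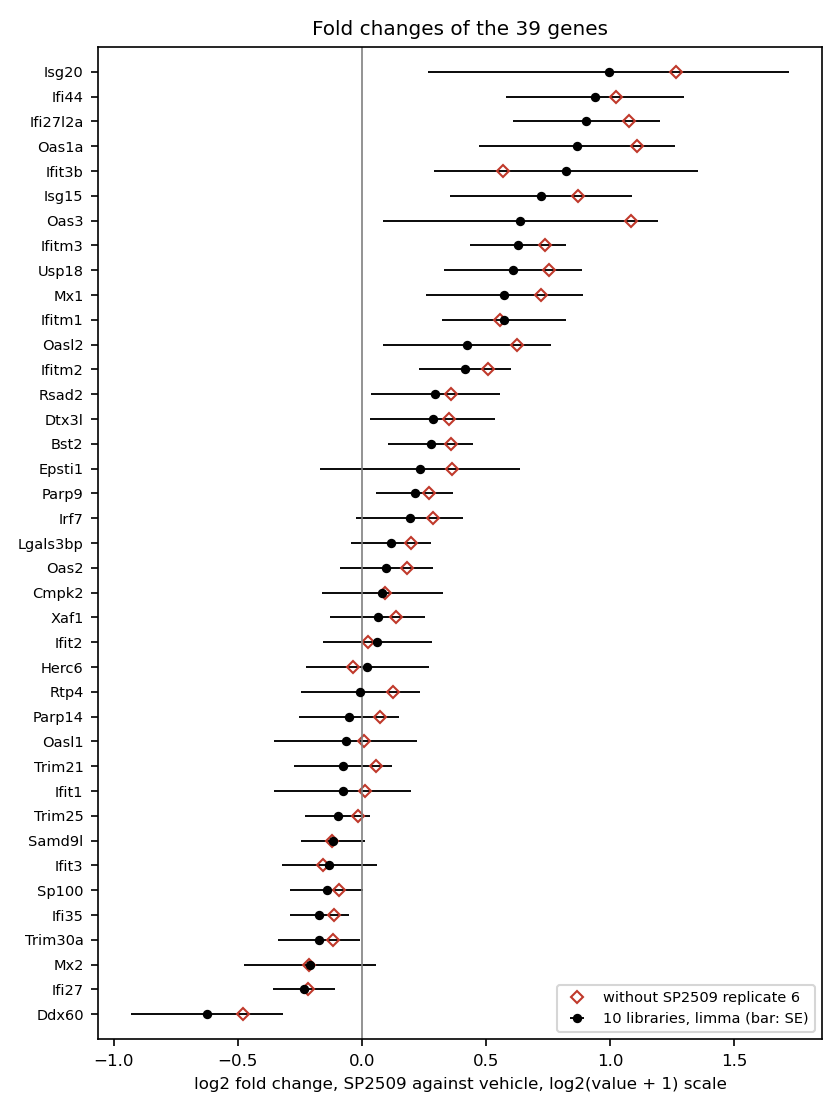
Log2 fold change of each of the 39 genes, SP2509 against vehicle, with its standard error over 10 libraries (black, limma) and the value without SP2509 replicate 6 (red diamonds). The values run from -0.62 for Ddx60 to 0.995 for Isg20, and 25 of 39 are above 0.

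The 6 SP2509 libraries did not carry these genes at 1 level. In SP2509 replicates 1, 2 and 3, 17, 19 and 19 of the 39 genes lay above every vehicle library (43.6%, 48.7% and 48.7%) and 2 lay below, where 26.3%, 25.6% and 27.5% of all tested genes lay above and 23.5% to 25.1% below. In replicates 4 and 5, 11 and 9 genes lay above (28.2% and 23.1%, against 28.5% and 27.8% of all genes) and 6 below in each (15.4%, against 25.5% and 25.4%). In replicate 6 only 3 lay above (7.69%, against 30.1% of all genes) and 14 below (35.9%, against 29.0%). The median log2 difference from the vehicle mean was 0.34, 0.40 and 0.31 in replicates 1 to 3, 0.04 and -0.04 in replicates 4 and 5 and -0.28 in replicate 6. Among vehicle libraries it ran from -0.17 in replicate 2 to 0.24 in replicate 3, and for all genes it lay between 0.00 and 0.04 in every library. When the 10 libraries were ranked for each gene, SP2509 replicate 6 was the lowest library in 12 of the 39 genes (30.8%, against 18% of all genes), vehicle replicate 1 in 9 (23.1%, against 18.9%) and vehicle replicate 2 in 8 (20.5%, against 11.7%). SP2509 replicate 3 was the highest in 9 (23.1%, against 8.87% of all genes), SP2509 replicate 1 in 8 (20.5%, against 5.66%) and vehicle replicate 3 in 7 (17.9%, against 9.88%).

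**Figure D2:**
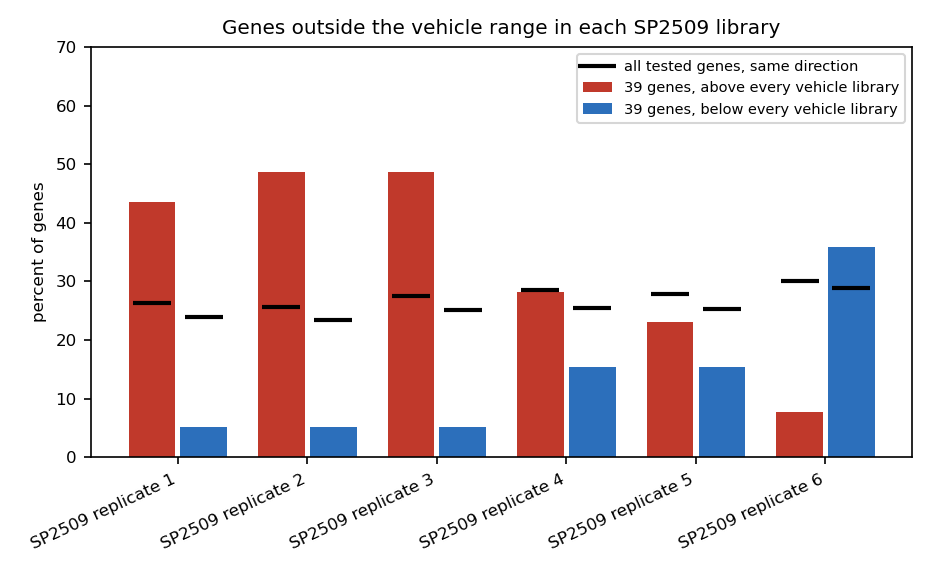
Percent of the 39 genes above (red) or below (blue) every vehicle library in each SP2509 library, with the same percent over all tested genes as black bars. Replicates 1 to 3 have 43.6% to 48.7% of the genes above the vehicle range, and replicate 6 has 7.69%.

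The keratinocyte marker sum took its highest values in SP2509 replicates 1 to 3 and its lowest in SP2509 replicate 6, and the muscle sum was highest in SP2509 replicate 6. Among the vehicle libraries the keratinocyte sum and the median log2 difference of the effectors ran in opposite orders. Vehicle replicate 2 had the highest sum of its group (128016) and the lowest median (-0.17). Vehicle replicate 3 had the lowest sum (91550) and the highest median (0.24). The 12 macrophage and monocyte markers summed to 2079 to 2716 in SP2509 replicates 1 to 3, 2946 in replicate 6, 3607 and 3758 in replicates 4 and 5 and 1532 to 2678 in vehicle. Of these 12 genes 1, C1qb, was called higher (limma adjusted p = 0.0357), where 4.95% of all genes were. Its adjusted p in limma was 0.122 with the pairs averaged. Neutrophil markers, of which 7 of 8 were in the table and Cxcr2, Retnlg, Mmp8 and Camp were at 0 in some libraries, summed to 8531, 8189 and 3529 in SP2509 replicates 1 to 3, 1669 to 2037 in replicates 4 to 6 and 253 to 1581 in vehicle. Siglech, a marker of plasmacytoid dendritic cells, the leukocytes best known for interferon secretion, averaged 18.8 ± 5.92 (vehicle) and 8.28 ± 4.55 (SP2509), a log2 fold change of -1.05 that limma did not call (adjusted p = 0.160). The other 3 tested markers of these cells had positive fold changes and were not called either. These were Cox6a2, which skeletal muscle also expresses, at 0.50, Tlr7 at 0.49 and Pacsin1 at 0.98. Pacsin1 stood at 911 and 876 normalised reads in SP2509 replicates 4 and 5. The other SP2509 libraries had 15.7 to 26.9 and vehicle 26.1 to 53.9. Tlr7 rested on 31 reads in vehicle and 93 in SP2509. T and NK cell markers summed to 82.1 to 151 in SP2509 and 100 to 277 in vehicle. Of these 12 genes 7 (Cd3d, Cd8a, Cd8b1, Ncr1, Klrb1c, Gzmb and Prf1) were at 0 in at least 1 library. The 8 dendritic cell markers summed to 271 to 429 in SP2509 and 442 to 573 in vehicle, and all 8 fold changes were negative. B and plasma cell markers summed to 161 to 327 in SP2509 and 288 to 522 in vehicle, with all 4 tested genes negative. Itgax and Ighm, 1 gene of each list, were called lower (limma adjusted p = 0.0351 and 0.0378), where 4.15% of all genes were. With the pairs averaged limma gave adjusted p of 0.107 and 0.101. The part of these cell types in the levels of the effectors was not tested.

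**Figure D3:**
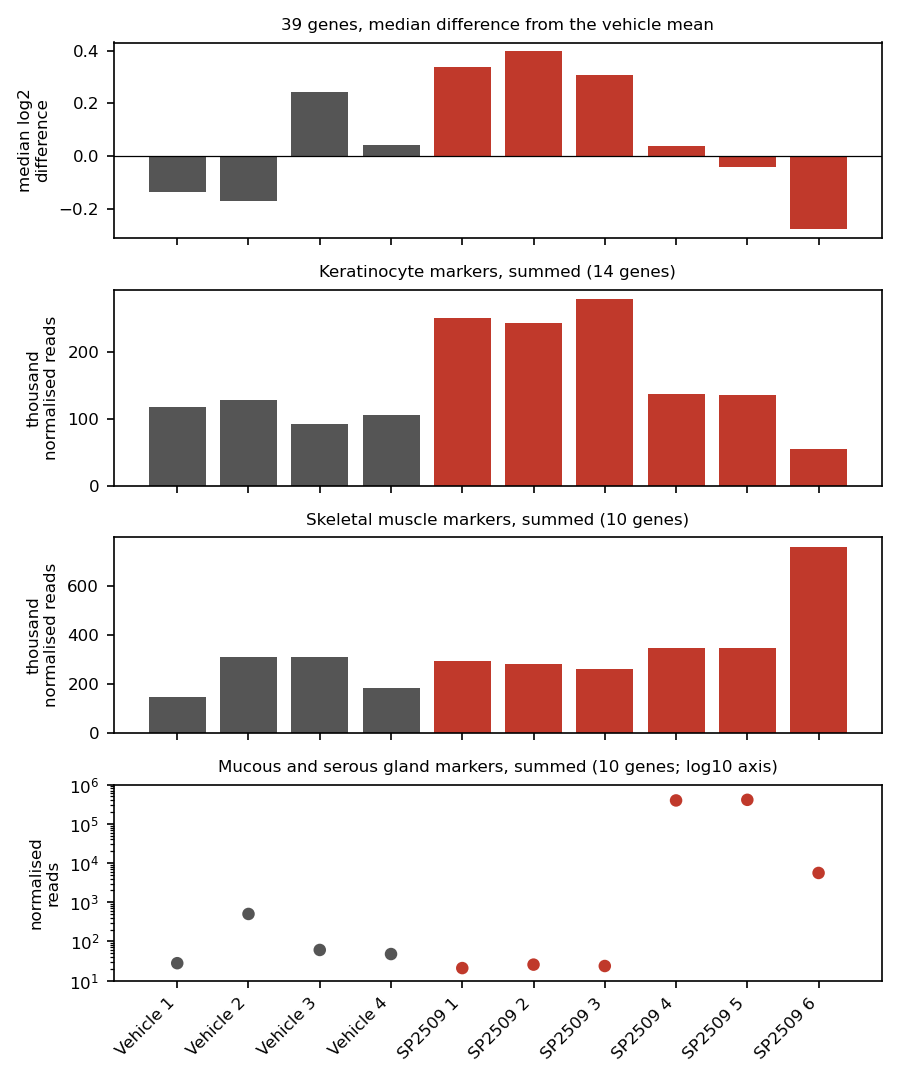
Median log2 difference of the 39 genes from their vehicle mean in each library (top) above the summed normalised reads of keratinocyte, skeletal muscle and gland markers, vehicle in grey and SP2509 in red. The gland axis is log10. The median runs from -0.28 in SP2509 replicate 6 to 0.40 in SP2509 replicate 2, and the keratinocyte sum from 55038 to 278115 in SP2509 replicates 6 and 3.

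Membrane restriction factors were the most abundant group. IFITM proteins sit in the membranes of the cell surface and endosomes and block fusion of enveloped viruses. Ifitm3 (chromosome 7, 141009586 to 141010770, GRCm38) was the highest of the 39 per length, at 3275 normalised reads per kb of exon over the 10 libraries, followed by Ifitm2 at 1699, Ifi27l2a at 1138, Ifi27 at 721 and Bst2 at 389. Oas3 was the lowest, at 6.01 per kb. Ifitm3 stood at 1181, 1505, 1943 and 2094 normalised reads in vehicle replicates 1 to 4, and at 3037, 2828, 2331, 2698, 2848 and 1738 in SP2509 replicates 1 to 6. Replicates 1 to 5 of SP2509 were above every vehicle library and replicate 6 lay inside the vehicle range. The means were 1681 ± 416 (SD, n = 4) and 2444 ± 535 (n = 4 units), and limma put the log2 fold change at 0.63 ± 0.19 (SE) with an adjusted p of 0.0597 (0.195 with the pairs averaged). This was the smallest p of the 39. DESeq2 gave Ifitm3 an adjusted p of 0.0225, and without SP2509 replicate 6 limma gave 0.00781 with a fold change of 0.74. A filter of 50 in place of 10, which tests fewer genes, also brought Ifitm3 past the threshold (adjusted p = 0.0498, where 8.39% of all genes were called higher).

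Ifitm2 ranged from 627 to 1066 in vehicle and was at 890 in SP2509 replicate 6, against 1071 to 1569 in SP2509 replicates 1 to 5. Its log2 fold change was 0.42 ± 0.19 (limma adjusted p = 0.165; 0.0454 without replicate 6). Of its exon bases, 40.9% lie in an overlapping model on the same strand, so its reads can be shared. Ifitm1 was at 31.5 to 70.4 in vehicle and 58.5 to 99.5 in SP2509, where replicate 3 was the library inside the vehicle range (0.57 ± 0.25, adjusted p = 0.158). Bst2 encodes tetherin, which holds budding virions at the cell surface. It had 314 ± 81.6 and 360 ± 63.3 normalised reads, and its groups overlapped in all but replicate 1 of SP2509 (0.28 ± 0.17, adjusted p = 0.313). All 4 genes of the group kept a positive fold change under every alternative tried, and none was called in the 10-library fit.

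**Figure D4:**
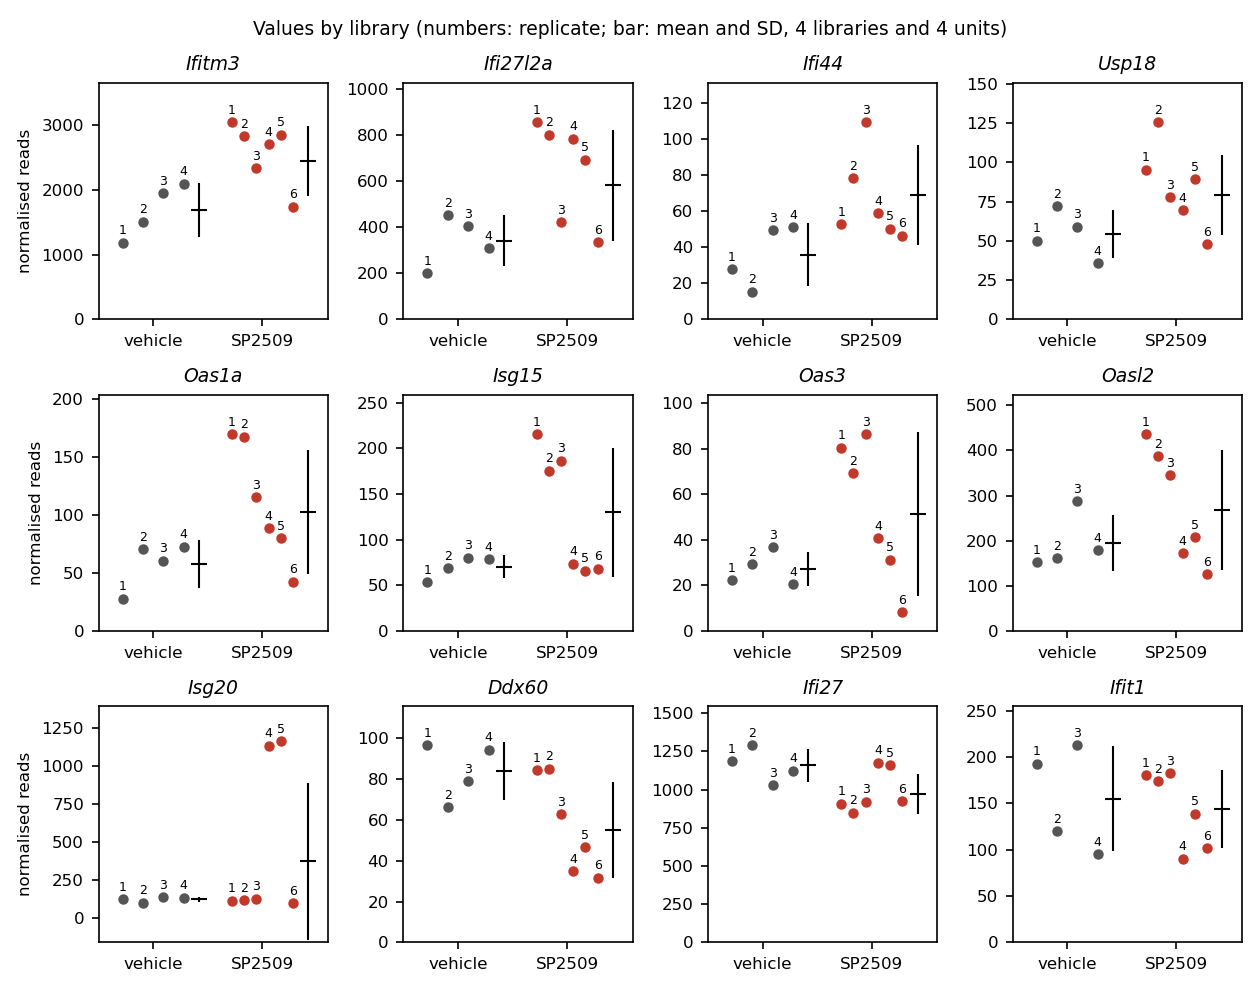
Normalised reads of 12 of the genes by library, vehicle in grey and SP2509 in red, with the replicate number above each point and the mean and SD of 4 vehicle libraries and 4 SP2509 units. Isg15, Oas3 and Oasl2 are highest in SP2509 replicates 1 to 3, Isg20 is highest in replicates 4 and 5, and Ifitm3 is above the vehicle range in replicates 1 to 5.

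The ISG15 system attaches a ubiquitin-like protein to other proteins. Isg15 (chromosome 4, 156199424 to 156200818), the modifier itself, stood at 53.8, 69.1, 80.2 and 79.0 normalised reads in vehicle and at 216, 176, 187, 73.8, 66.2 and 68.4 in SP2509 replicates 1 to 6. Replicates 1 to 3 were above every vehicle library, and replicates 4 to 6 lay inside the vehicle range. The group means were 70.5 ± 12.2 and 130 ± 70.6, with a log2 fold change of 0.72 ± 0.37 (limma adjusted p = 0.221; 0.296 with the pairs averaged). Usp18 removes ISG15 from its targets and also restrains the type I interferon receptor. It was at 50.1, 72.2, 59.1 and 35.9 in vehicle and at 95.3, 125, 77.7, 69.7, 89.4 and 48.0 in SP2509, so that 4 of 6 SP2509 libraries were above the vehicle range. Its fold change was 0.61 ± 0.28 (adjusted p = 0.175; 0.0456 without replicate 6). Herc6, the mouse ligase that conjugates ISG15, had 40.7 to 92.5 normalised reads over all libraries and a fold change of 0.02 ± 0.25, which turned to -0.13 after rescaling outside mitochondrial genes. Uba7 and Ube2l6, the activating and conjugating enzymes of ISG15, did not pass the test either.

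OAS enzymes sense double-stranded RNA and make oligoadenylates as a second messenger, and Oasl1 and Oasl2 are OAS-like relatives. Oas1a (chromosome 5, 120896256 to 120907521) was at 27.8, 70.6, 60.5 and 72.7 in vehicle and at 170, 167, 115, 88.8, 80.0 and 42.3 in SP2509. Replicates 1 to 5 were above every vehicle library and replicate 6 was not (0.87 ± 0.40, limma adjusted p = 0.175; 1.11 and 0.03 without replicate 6). Of the 50-base words of its transcript, 57.6% also occur in Oas1g, so reads of these copies may not be separable. Oas3 stood at 22.3, 29.2, 36.6 and 20.7 in vehicle and at 80.4, 69.3, 86.4, 40.6, 31.3 and 8.14 in SP2509. Replicates 1 to 4 were above every vehicle library, replicate 5 lay inside the vehicle range and replicate 6 below it. The fold change was 0.64 ± 0.55 (adjusted p = 0.482), and 1.08 with an adjusted p of 0.0391 without replicate 6.

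Oasl2 was at 152 to 287 in vehicle and at 436, 387 and 345 in SP2509 replicates 1 to 3, but at 172, 208 and 125 in replicates 4 to 6 (0.42 ± 0.34, adjusted p = 0.442). Oas2 had 311 ± 62.2 and 330 ± 78.1 normalised reads (0.10 ± 0.19, adjusted p = 0.772). Oasl1 was low, at 17.1 to 35.8 over all libraries (-0.07 ± 0.29, adjusted p = 0.909). Directions of Oas2 and Oasl1 depended on scaling: Oas2 was at -0.05 after rescaling outside mitochondrial genes and Oasl1 at 0.11 after quantile normalization.

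IFIT proteins bind foreign RNA or translation factors and limit viral translation. Ifit1 had 193, 120, 213 and 95.2 normalised reads in vehicle and 180, 174, 182, 90.4, 139 and 102 in SP2509. The ranges overlapped almost fully (-0.08 ± 0.28, limma adjusted p = 0.887). Ifit2 (72.3 to 153 in vehicle, 100 to 150 in SP2509; 0.06 ± 0.22) and Ifit3 (109 to 193 and 98.9 to 137; -0.13 ± 0.19) overlapped as well. Ifit3b was at 33.4, 6.14, 35.2 and 35.9 in vehicle and at 35.0, 30.5, 47.1, 19.1, 50.2 and 102 in SP2509, with a fold change of 0.82 ± 0.53 (adjusted p = 0.332). It rested on 87 reads in vehicle and 355 in SP2509. Of the 50-base words of Ifit3, 51.2% occur in Ifit3b, so how reads were split between these copies is uncertain.

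Mx proteins are dynamin-like GTPases that trap viral components, Mx1 in the nucleus and Mx2 in the cytoplasm of the mouse. Mx1 ranged from 16.9 to 35.2 in vehicle and from 21.2 to 55.6 in SP2509, with replicates 2, 4 and 5 above the vehicle range (0.57 ± 0.32, limma adjusted p = 0.254). Mx2 had 29.2 to 67.6 and 28.3 to 38.8 (-0.21 ± 0.27, adjusted p = 0.649). Their fold changes had opposite signs, and neither passed.

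Among the antiviral enzymes, Isg20, an exonuclease gene, had the largest fold change of the 39 and it came from 2 libraries. Isg20 (chromosome 7, 78913424 to 78920396) stood at 121, 98.3, 137 and 132 in vehicle and at 112, 114, 125, 1132, 1160 and 94.4 in SP2509. SP2509 replicates 4 and 5, the close pair with high gland markers, were the high libraries, and the other 4 lay inside or under the vehicle range. The fold change was 0.995 ± 0.73 (limma adjusted p = 0.393) and fell to -0.12 without replicates 4 and 5. Rsad2 encodes viperin, which makes a chain-terminating nucleotide, and the adjacent gene Cmpk2 encodes a nucleotide kinase. Rsad2 had 106 ± 41.3 and 128 ± 35.5 normalised reads (0.30 ± 0.26, adjusted p = 0.488), and Cmpk2 had 86.6 ± 24.7 and 96.6 ± 29.2 (0.08 ± 0.24, adjusted p = 0.859). SP2509 replicate 3 was the highest library for both, at 180 and 139. Samd9l, a restriction factor gene, was at 353 to 519 in vehicle and 347 to 470 in SP2509 (-0.12 ± 0.13).

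Ddx60, a helicase gene tied to RNA sensing, ran the other way. It stood at 96.4, 66.0, 78.8 and 94.3 in vehicle and at 84.2, 85.0, 62.8, 34.8, 46.5 and 31.7 in SP2509. Replicates 1 and 2 lay inside the vehicle range and replicates 3 to 6 below it. The fold change was -0.62 ± 0.31 (limma adjusted p = 0.203), the lowest of the 39. Its promoter stretch holds 2 ISRE cores.

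Parp9 and Dtx3l, which form a complex that modifies histones, are neighbours and overlap by 458 exon bases on opposite strands. Whether counting used strand is not stated, so reads in the overlap cannot be assigned. Dtx3l was at 117, 138, 156 and 96.1 in vehicle and at 184, 224, 211, 120, 98.9 and 121 in SP2509, with replicates 1 to 3 above the vehicle range (0.29 ± 0.25, adjusted p = 0.488). Parp9 did the same, at 207 to 289 in vehicle, 322 to 340 in replicates 1 to 3 and 234 to 272 in replicates 4 to 6 (0.21 ± 0.16, adjusted p = 0.393). Parp14, an ADP-ribosyltransferase gene, was at -0.05 ± 0.20. Fold changes were -0.08 ± 0.20 for Trim21, the cytosolic antibody receptor, -0.10 ± 0.13 for Trim25, a ligase of the RIG-I pathway, and -0.17 ± 0.16 for Trim30a. Trim21, Trim25 and Parp14 had their lowest value in SP2509 replicate 6 (68.4, 479 and 221 normalised reads), and so did Trim30a (87.1).

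Irf7 is the transcription factor that amplifies type I interferon production. It was at 271, 180, 373 and 268 in vehicle and at 362, 381, 368, 274, 252 and 217 in SP2509, so that 1 SP2509 library exceeded the vehicle range (0.19 ± 0.22, limma adjusted p = 0.596). Sp100, a nuclear body gene, was at 332 to 541 and 352 to 472 (-0.14 ± 0.15), with every SP2509 library inside the vehicle range.

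Among the other induced genes, Ifi27l2a, a small mitochondrial or nuclear membrane protein gene (chromosome 12, 103442167 to 103443680), stood at 202, 455, 404 and 309 in vehicle and at 857, 803, 422, 786, 694 and 337 in SP2509. Replicates 1, 2, 4 and 5 were above every vehicle library, and 3 and 6 were not. The means were 342 ± 111 and 582 ± 239, with a fold change of 0.91 ± 0.30 (limma adjusted p = 0.071, 0.231 with the pairs averaged; DESeq2 adjusted p = 0.0211). Without SP2509 replicate 6 the fold change was 1.08 (adjusted p = 0.0168). Its neighbour Ifi27 lay the other way, at 1189, 1290, 1030 and 1125 in vehicle and at 909, 850, 922, 1176, 1160 and 925 in SP2509, where replicates 4 and 5 lay inside the vehicle range and the other 4 below it (-0.23 ± 0.12, adjusted p = 0.237).

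Ifi44, a cytosolic protein gene that marks interferon exposure, was at 27.8, 15.4, 49.3 and 51.2 in vehicle and at 52.9, 78.4, 109, 58.9, 50.2 and 46.4 in SP2509. Replicates 1 to 4 were above the vehicle range and replicates 5 and 6 inside it (0.94 ± 0.36, adjusted p = 0.113). It rested on 117 reads in vehicle and 488 in SP2509. Rtp4 and Xaf1 were higher than every vehicle library in SP2509 replicates 1 and 2 and, for Xaf1, 3, and lower than every vehicle library in replicates 4 and 6, so that their fold changes were -0.01 ± 0.24 and 0.06 ± 0.19. Lgals3bp (0.12 ± 0.16), Epsti1 (0.24 ± 0.40) and Ifi35 (-0.17 ± 0.12) overlapped between the groups, with Ifi35 lowest in SP2509 replicate 6 (315, against 372 to 467 in vehicle).

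**Figure D5:**
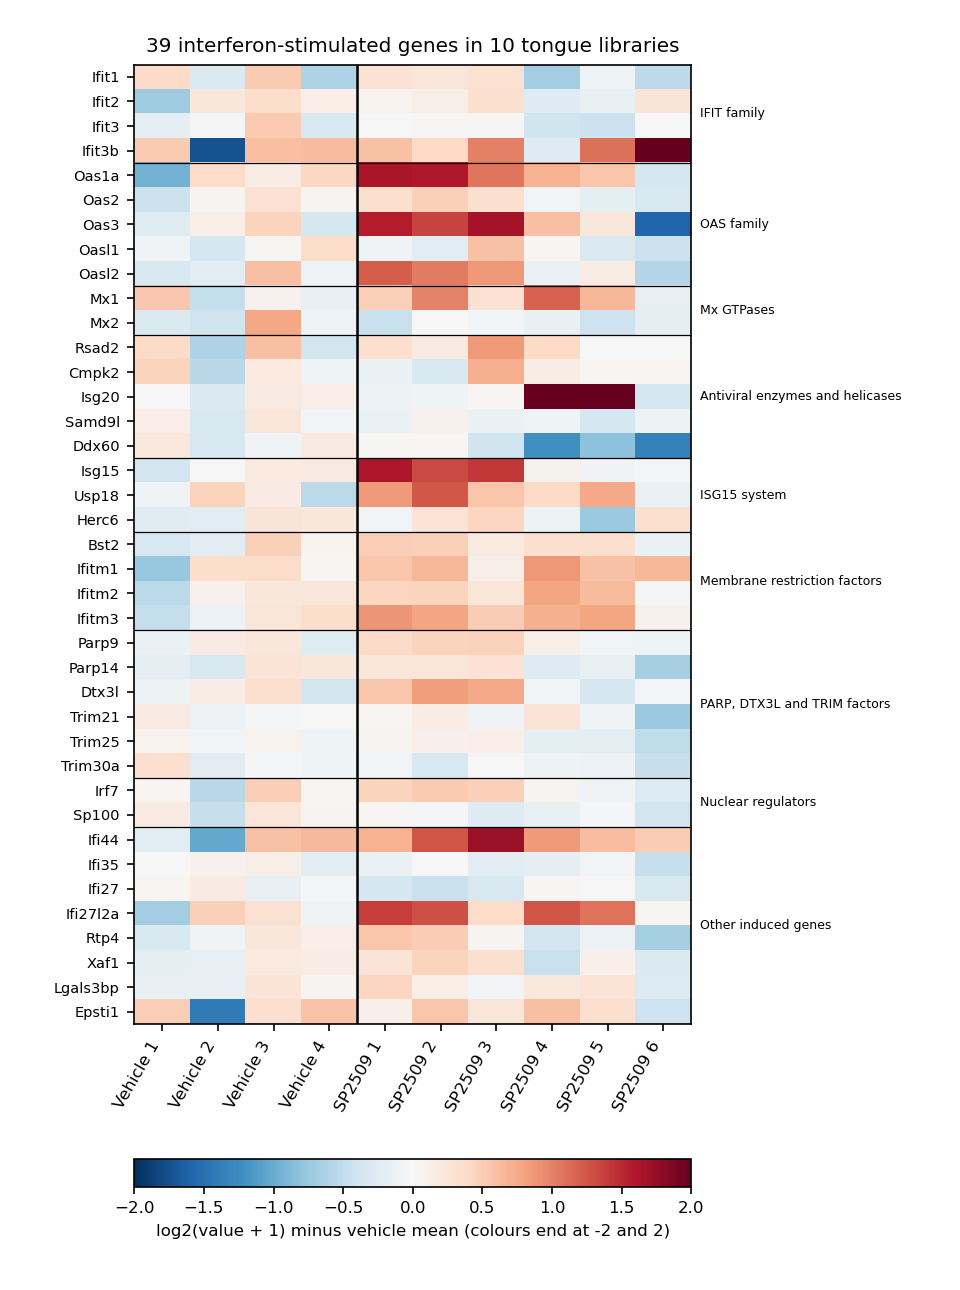
Difference of each gene from its vehicle mean on the log2(value + 1) scale, with genes in rows by role and libraries in columns. Isg15, Oas1a, Oas3 and Oasl2 are red in SP2509 replicates 1 to 3, Isg20 in replicates 4 and 5 alone, and replicate 6 is the lowest library in 12 of 39 rows (30.8%, against 18% of all genes).

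Upstream of these effectors, interferon transcripts were at the edge of detection. Of 21 interferon genes looked for, the table lists 4, none tested: Ifna5 and Ifna13, each with 4 reads over the vehicle group and 6 over the SP2509 group, Ifnl3 with 11 and 6 and Ifng with 2 and 16. Each of the 4 was at 0 in at least 1 library of both groups. The read totals cover 4 vehicle libraries and 6 deeper SP2509 libraries. In normalised reads Ifng averaged 0.93 ± 1.85 (vehicle) and 1.78 ± 1.65 (SP2509), and in vehicle only replicate 1 had any. The 6 receptor genes gave no call; Ifngr2 and Ifngr1, the chains of the gamma receptor, were at 0.47 ± 0.25 and 0.17 ± 0.11 (limma adjusted p = 0.238 and 0.334) and Ifnlr1, the lambda receptor chain, at -0.41 ± 0.29 (adjusted p = 0.387). Of 12 JAK, STAT and IRF genes 1 was lower and none higher, against 4.15% and 4.95% of all genes. That gene was Tyk2, a kinase of the type I receptor, which fell from 883 ± 122 to 633 ± 55.8 normalised reads (-0.44 ± 0.11, adjusted p = 0.0362), and its adjusted p was 0.104 with the pairs averaged. Jak1 (0.28 ± 0.09, adjusted p = 0.0662) and Irf3 (-0.28 ± 0.10, adjusted p = 0.0776) came next.

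Of 8 inhibitors of interferon signalling none passed, with Pias3 (-0.30 ± 0.11, limma adjusted p = 0.102), Ptpn1 (0.32 ± 0.17, 0.227) and Socs3 (0.37 ± 0.21, 0.262) closest. None of 12 tested nucleic acid sensors and adaptors passed. Tmem173, the STING gene, was at -0.53 ± 0.17 (adjusted p = 0.0714). Ifih1, which encodes the RNA sensor MDA5, was at 0.65 ± 0.25 (adjusted p = 0.108). Its values were 165, 172 and 113 in SP2509 replicates 1 to 3, 102, 116 and 90.3 in replicates 4 to 6 and 49.1 to 95.2 in vehicle. Eif2ak2, which encodes the kinase PKR, was at -0.28 ± 0.22 (adjusted p = 0.427). The 9 partners of the effectors, Uba7 and Ube2l6 among them, held no called gene. Among them Parp1 was at 0.41 ± 0.14 (adjusted p = 0.0843) and Nmi at 0.44 ± 0.17 (adjusted p = 0.123).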

How the data were processed

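The 10 libraries were 4 vehicle and 6 SP2509. HISAT2, featureCounts and mm10 are named, without versions, per the submitters' processing notes; the annotation and strand setting are not given there. The table deposited by the authors holds a signal per gene, counts divided by a library factor: in each library 100% of values were whole multiples, to within 0.01, of what 1 read is worth (0.898 to 1.85 in vehicle, 0.727 to 0.873 in SP2509), so reads could be recovered. Symbols were found for 27139 of 27151 IDs; exon lengths and overlaps come from GENCODE (GRCm38).

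The main test was limma 3.58.1 in R 4.3.3 (trend, robust, two-sided) on log2(value + 1), which understates change in low genes. It covered 17088 genes that reached 10 in 4 or more libraries, and adjusted p under 0.05 was a call. edgeR 4.0.16 and DESeq2 1.42.0 were run on recovered reads. Alternatives were pseudocount, filter, 2 rescalings, tool, averaged or summed close pairs, a replicate block and left-out libraries. Scripts were tested on simulated data. The 39 genes and all lists were chosen with earlier results of these data known. All 39 are named, with the 3 genes of smallest p in each pathway list, 1 of which is not reported here; Uba7, Ube2l6, C1qb, Siglech, Cox6a2, Tlr7 and Pacsin1 were chosen after their values were seen.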

Additional observations from a re-analysis of the deposited data

Results flagged for a closer look

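In 78 groups of values (39 genes in 4 vehicle and 6 SP2509 libraries), 3 held a library far from the others by the ratio of its gap to the range; chance alone gives about 1 in 20 groups. Ifit3b was at 6.14 normalised reads in vehicle replicate 2, where the other vehicle libraries had 33.4 to 35.9. Oasl1 was at 35.8 in SP2509 replicate 3, against 17.1 to 24.1 in the other SP2509 libraries. Cmpk2 was at 139 in SP2509 replicate 3, against 66.8 to 92.9.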

How the results depend on the processing

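No alternative called any of the 39 genes lower, and the number called higher was 0 except for 1 with a filter of 50, 2 with DESeq2 and 4 with the replicate block (Oas1a, Oas3, Isg15 and Ifitm3; 6.58% of all genes). Numbers 5 and 6 occur only in SP2509, so the replicate block took its fold changes from replicates 1 to 4 of each group. SP2509 replicate 6 thus had no part in its fold changes either. Leaving out SP2509 replicate 6 gave 6, and leaving out any other single library gave 0. Deviations of same-numbered libraries from their group means correlated at 0.126, 0.0324, -0.198 and 0.125. Vehicle replicate 4 correlated best with the SP2509 library of its own number, and the other vehicle libraries did not. Whether libraries of the same number shared a batch was not tested. Over all genes, 846 were higher and 709 lower; without a filter 553 were higher, and without trend and robust fitting 490. Rescaling outside mitochondrial genes gave 296 and 1444, quantile normalization 666 and 1060, DESeq2 1606 and 1394, and the averaged pairs, or the summed pairs in edgeR, 0 and 0. Leaving out SP2509 replicates 4 and 5 gave 233 and 169, and replicates 1 and 2, an alternative chosen after seeing the data, 81 and 72. Leaving out 1 library gave 171 (vehicle replicate 1) to 1987 (SP2509 replicate 6) higher and 106 to 1500 lower, from the same libraries. DESeq2 on summed pairs, also chosen after seeing the data, gave 861 and 821. The median log2 fold change of the 39 lay between -0.03 (rescaled) and 0.27 (replicate block), within 1 SD over SP2509 units (0.29) of 0.12.

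Single-gene log2 fold changes changed sign in 56 of 969 values, over 16 genes, none of them called. After rescaling outside mitochondrial genes Ifit2 was at -0.087, Oas2 at -0.052, Cmpk2 at -0.066, Herc6 at -0.13, Xaf1 at -0.085 and Lgals3bp at -0.032. Quantile normalization gave 0.11 for Oasl1 and -0.0089 for Xaf1. Under the replicate block Ifit1 was at 0.036, Oasl1 at 0.084, Parp14 at 0.13, Trim21 at 0.090, Trim25 at 0.029 and Rtp4 at 0.19. Without SP2509 replicates 4 and 5 Ifit1 was at 0.079, Ifit3 at 0.011, Isg20 at -0.12, Parp14 at 0.026 and Rtp4 at 0.11; without replicates 1 and 2 Oas2 was at -0.056, Herc6 at -0.021 and Xaf1 at -0.077. edgeR gave Rtp4 0.078, and DESeq2 gave Rtp4 0.030 and Ifit2 -0.00097. With summed pairs edgeR gave Oasl1 0.015 and Rtp4 0.0062, and DESeq2 gave Epsti1 -0.0038. Leaving out 1 library moved Ifit1 between -0.28 and 0.10, Ifit2 between -0.18 and 0.18, Ifit3 between -0.23 and 0.043, Oas2 between -0.043 and 0.20, Oasl1 between -0.20 and 0.058 and Mx2 between -0.34 and 0.051. It moved Cmpk2 between -0.10 and 0.23, Herc6 between -0.060 and 0.17, Parp14 between -0.15 and 0.073, Trim21 between -0.15 and 0.058, Rtp4 between -0.12 and 0.12, Xaf1 between -0.010 and 0.17 and Epsti1 between -0.23 and 0.43. The causes were not tested. Depth limits the low genes: Oas3, Oasl1, Mx1, Epsti1 and Ifit3b rested on 72 to 87 reads over the vehicle libraries.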
